A study of Mus musculus with 9 samples.

Results

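The genes described here are *Ttr* and *Enpp2* of the choroid plexus, *Mbp* and *Mobp* of oligodendrocytes, *Gfap*, *Slc1a2* and *Aqp4* of astrocytes, *Cldn5* of endothelium and *Snap25* of neurons. They are 9 of the 53801 genes listed in each library. They were picked by name as genes of brain cells outside the myeloid lineage, after their counts in stroke brain had been set against those in blood, so brain against blood values of the 9 genes are a description without a test. The libraries came from monocytes/macrophages that were sorted as CD11c-Ly6G-CD11b+CD45high from male C57BL/6J mice aged 9 weeks. The 3 stroke brain libraries were made from the ipsilesional hemisphere at day 5 of dMCAO (distal middle cerebral artery occlusion, here permanent and combined with closure of the common carotid artery, both on the left side), and each pooled the cells of 5 mice. The 3 stroke blood libraries came from the blood of mice with the same occlusion at the same day, and the 3 sham blood libraries from sham-operated mice, with 1 mouse in each blood library and the day of the sham samples not named in the sources used here. A sham brain group was not analysed here, so brain and blood differ in tissue, in the preparation of the cell suspension and in pooling at once, and these cannot be told apart. The gate also takes microglia that have raised CD45, and the blood cells came through a Ficoll step whereas the brain cells came through enzymatic dissociation and a Percoll gradient.

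Each gene of the set belongs to a cell type that a CD11b+CD45high sort is meant to leave out. The choroid plexus is the epithelium in the ventricles that makes cerebrospinal fluid, and it secretes transthyretin, the carrier of thyroid hormone and retinol that *Ttr* encodes. Oligodendrocytes wrap axons in myelin, whose sheath is packed with myelin basic protein and related proteins. Astrocytes clear glutamate, move water at their endfeet and fill their processes with the intermediate filament GFAP, endothelial cells seal the blood-brain barrier with claudin 5, and neurons release transmitter through a complex that holds SNAP25.

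The 9 genes did not behave as a block. *Ttr* and *Enpp2* had at least 333 counts in every brain library and 0 in every blood library. *Mobp*, *Slc1a2* and *Gfap* were present in the brain at 62 counts or fewer. *Mbp* had at least 2684 counts in all 9 libraries and a lower mean in the brain than in the blood, so the data went against its place in a set of transcripts particular to brain tissue. *Cldn5* was at 0 in all 9 libraries, and *Aqp4* and *Snap25* were each found in 1 brain library only. Of the 9 genes, 5 were above 3 counts in every brain library and 6 were at 0 in every blood library. The low count filter of edgeR kept 5 of them for brain versus stroke blood (*Ttr*, *Enpp2*, *Mbp*, *Mobp* and *Slc1a2*), 5 for brain versus sham blood and 1, *Mbp*, for stroke blood versus sham blood. A gene absent from blood can pass that filter only through the brain, so these numbers say nothing about a difference.

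Total counts lay between 18475118 and 22623578 per library, so that the floor of 3 counts used here for calling a gene present came to 0.133 to 0.162 counts per 1000000 counts of the library (CPM). Genes of the sorted cells (*Lyz2*, *Itgam*, *Ptprc*, *Csf1r*, *Cd68*, *Adgre1*, *Ly6c2* and *Ccr2*) all passed 3 counts in every library. *Ly6g*, the neutrophil gene of the gate, stayed at 14 counts or fewer, whereas *Itgax*, which encodes CD11c, had 1786 to 2643 counts in the brain and 199 to 403 in blood, although the gate was set to leave CD11c out. The 10 genes of a microglia list were all above 3 counts in every brain library and together made up 1728 CPM in brain library 1, 2937 CPM in library 2 and 4899 CPM in library 3, against 427 to 735 CPM in blood. Of the 8 genes of the sorted cells named above, edgeR called 2 lower in brain versus stroke blood, *Lyz2* and *Ly6c2*. The other 6 were not called, and 7.86% of all genes tested were called down. Brain library 1 stood apart in collagen, since *Col1a1* had 4204, 20 and 0 counts in brain libraries 1, 2 and 3, *Col3a1* 3880, 22 and 0, and *Col1a2* 2765, 17 and 0. The cells that held any of the transcripts described here were not identified by these bulk counts, and fewer cells of a type cannot be told apart from less RNA per cell.

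**Figure D1:**
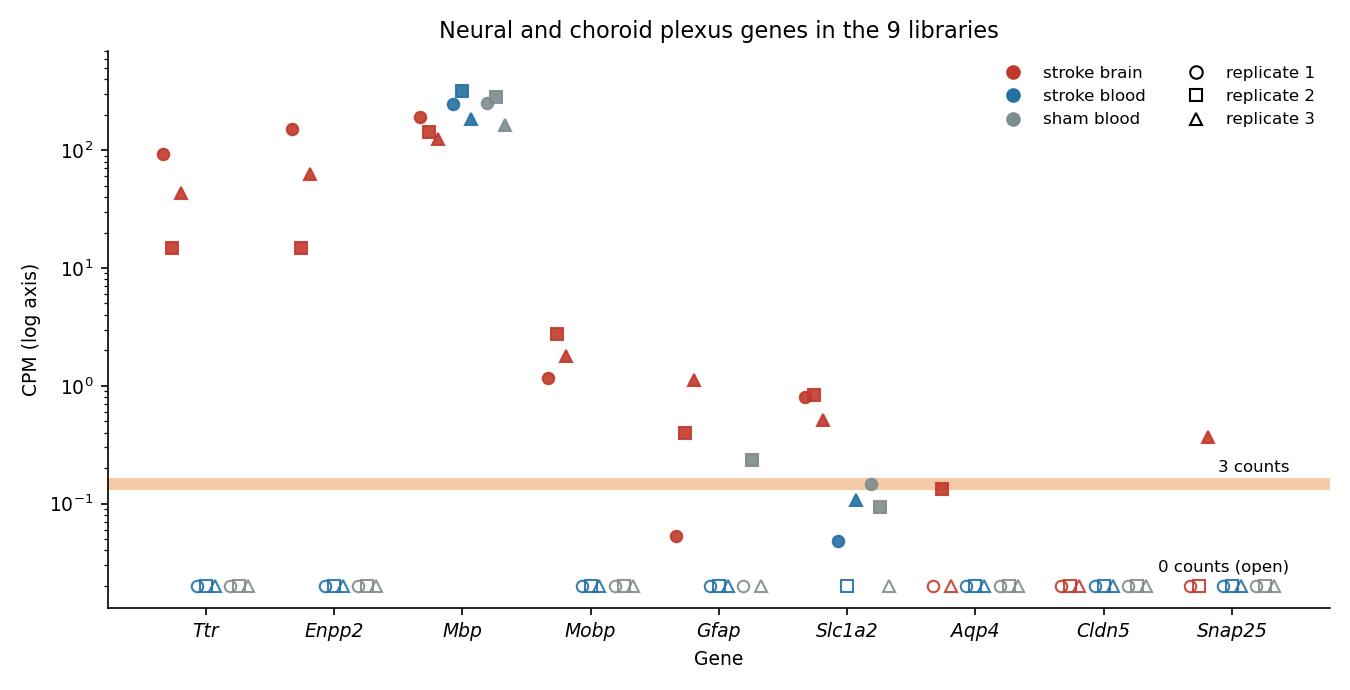
CPM (log axis) of the 9 genes in the 9 libraries, with color for the group and shape for the replicate number; open symbols at the bottom are libraries with 0 counts, and the band marks 3 counts in each library. *Mbp* is near or above 100 CPM in all libraries, *Ttr* and *Enpp2* appear in brain libraries only, and *Cldn5* is at 0 throughout.

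*Ttr* lies on chromosome 18 (GRCm38, 20665250 to 20674324). It had 1760 counts in brain library 1, 334 in library 2 and 944 in library 3, and 0 counts in each of the 6 blood libraries. This was a mean of 50.8 ± 40.01 CPM in the brain (SD, n = 3). With blood set to the floor of 3 counts per library, that mean was at least 342-fold above stroke blood and at least 339-fold above sham blood. Each bound of this kind given here uses the brain mean, so a single brain library can lie under it. The spread among the brain libraries was wide, with the highest at 6.36 times the lowest in CPM, and without library 1 the mean fell to 29.2 CPM.

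*Enpp2* (chromosome 15, 54838901 to 54952892, minus strand) encodes autotaxin, a secreted enzyme that makes lysophosphatidic acid and that choroid plexus epithelium expresses strongly. It had 2858, 333 and 1370 counts in brain libraries 1, 2 and 3 and also 0 in every blood library. The brain mean was 76.8 ± 69.8 CPM (SD, n = 3), at least 517-fold above stroke blood and at least 513-fold above sham blood. Its highest brain library was 10.4 times its lowest, and the mean without library 1 was 39.1 CPM. Exons of *Enpp2* overlap *Gm26684* on the opposite strand, and the strand setting of the counting is not given in the sources used here, so a part of its reads could belong to that gene.

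Both genes followed the same order over the 3 brain libraries, with library 1 the highest, then library 3, then library 2. There were 1.62 *Enpp2* counts per *Ttr* count in library 1, 0.997 in library 2 and 1.45 in library 3. Per kilobase of exon the order of the genes turned round, and the *Ttr* level was 3, 4.89 and 3.36 times that of *Enpp2* in the same libraries. The ratio of the genes therefore moved far less between libraries than either gene did. Of 9316 genes with a mean of at least 100 brain counts, *Ttr* was the gene whose pattern over the 9 libraries was most like that of *Enpp2*, and the reverse held as well, with a root mean square difference of 0.26 on the log2(CPM + 0.5) scale after centering. The others most like *Ttr* were *Il1a* (0.40 on the same measure), *Ccl22* (0.49) and *Rgs1* (0.60), and the same genes in the same order followed *Ttr* for *Enpp2* (0.55, 0.68 and 0.70). *Il1a* and *Ccl22* are myeloid cytokine genes, and in the brain libraries they had 1748, 815 and 967 counts and 761, 595 and 1156 counts. *Rgs1*, a regulator of G protein signaling in leukocytes, had 6456, 3707 and 2967 counts in the brain and 14 to 47 in blood. All of these genes were far higher in brain than in blood, and the 9 points share their libraries and depth.

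The choroid plexus was then read through 16 other genes of its epithelium. All 16 passed 3 counts in at least 1 brain library and 7 did so in every brain library, whereas 4 passed it in any blood library and 7 were at 0 in all blood libraries. Their summed level ran from 7.29 to 21.8 CPM in the brain, from 1.35 to 3.56 CPM in stroke blood and from 1.22 to 2.76 CPM in sham blood. In brain versus stroke blood 13.1% of all genes tested were called up and 7.86% down. Of the 16 genes edgeR tested 5, of which 3 rose and 1, *Aqp1*, fell. The median log2 fold change of these 5 was 4.85, or 3.46 with genes at 0 in blood set to their bound, and 0.06 over all 13189 genes. Against sham blood 3 of 4 tested genes rose, beside 9.75% of all genes called up and 3.67% called down, with a median of 7.26 (3.72 with bounds) and 0.01 over all 13020 genes. A list gene that was absent from blood could enter these tests only through the brain, and genes low in every library were left out, so counts and medians over the tested genes of any list here describe those genes and not the list. The shares of all genes called stand as the background of every list. DESeq2, which filters less, called 8 choroid plexus genes up and 0 down against stroke blood, and 6 up against sham blood.

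The 4 choroid plexus genes with the highest brain counts were *Igfbp2*, *1500015O10Rik*, *Folr1* and *Clic6*. *Folr1*, the folate receptor that loads folate into cerebrospinal fluid, had 74, 30 and 5 counts in brain libraries 1, 2 and 3. It was at 0 in blood, at least 12.3-fold lower in stroke blood than in the brain. The low count filter of edgeR did not keep *Folr1*, whereas DESeq2 called it up against both blood groups. *Igfbp2*, which encodes a binding protein of insulin-like growth factors, had 79, 29 and 35 brain counts against a single blood library with 4 counts, and rose with a log2 fold change of 4.85 ± 1.10 (SE; edgeR, adjusted p = 0.00981). These choroid plexus genes were thus present at 83 counts or fewer where *Ttr* and *Enpp2* had 333 or more. *1500015O10Rik*, which encodes the secreted protein augurin, had 70, 15 and 48 brain counts, at least 14.8-fold above stroke blood (edgeR, adjusted p = 0.00372). *Clic6*, a chloride channel family gene, had 9, 13 and 83 counts, at least 10.98-fold above stroke blood (edgeR, adjusted p = 0.0115). Against sham blood these genes rose as well, with adjusted p values of 0.00813 for *Igfbp2*, 0.00753 for *1500015O10Rik* and 0.0303 for *Clic6* in edgeR.

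**Figure D2:**
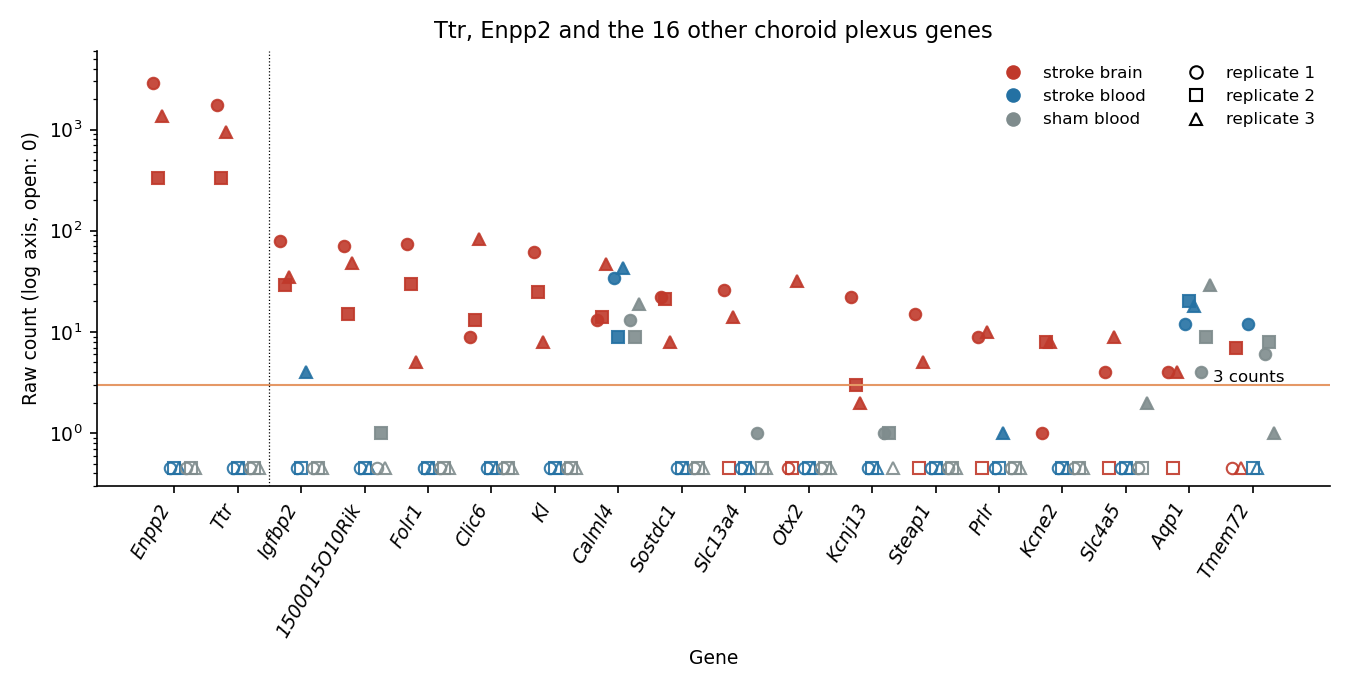
Raw counts (log axis) of *Enpp2*, *Ttr* and 16 other choroid plexus genes in the 9 libraries, with color for the group, shape for the replicate number, open symbols for 0 and a line at 3 counts. *Enpp2* and *Ttr* exceed all 16 other genes in every brain library. Of the 16, 4 pass 3 counts in some blood library, namely *Calml4*, *Aqp1*, *Tmem72* and *Igfbp2*.

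The 16 genes did not keep a fixed proportion to *Ttr*. Per 100 *Ttr* counts there were 4.2, 8.98 and 0.53 *Folr1* counts in brain libraries 1, 2 and 3. *Kl*, the gene of the hormone co-receptor klotho, gave 3.47, 7.49 and 0.847. *Clic6* ran the other way, at 0.511, 3.89 and 8.79 per 100 *Ttr* counts. The steadiest of the named genes was *1500015O10Rik*, at 3.98, 4.49 and 5.08. *Otx2*, the homeobox gene of choroid plexus identity, was seen in library 3 only, with 32 counts, and its exons overlap *Otx2os1*. *Kl* and *Otx2* were chosen here after their values were seen.

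Of the 16 choroid plexus genes 10 were highest in brain library 1, 1 in library 2 and 5 in library 3, and 6 (37.5%) had the order of *Ttr* and *Enpp2*, library 1 then 3 then 2. Over 17875 genes above 3 counts in some brain library, 39.5% were highest in library 1 and 19.5% had that order. Library 1 held 61.6% of the *Ttr* level summed over the brain libraries and 66.1% of that of *Enpp2*, and 49.8% of the sum of the 16 genes. The same library held 98.3% of the level of a list of 7 meningeal fibroblast genes. Their level was 585 CPM there, 9.02 CPM in library 2 and 1.25 CPM in library 3. Most of it came from the collagen genes named above, whereas *Dcn* had 89, 95 and 0 counts in libraries 1, 2 and 3. Of 6 genes of the list above 3 counts in some brain library, 5 were highest in library 1 and 1 in library 2. Against stroke blood edgeR tested 1 of the 7 and called 0, with 0 at an unadjusted p under 0.05, and DESeq2 called 0 of 6, with 2 at an unadjusted p under 0.05. Without brain library 3, or with no filter on low counts, edgeR called 4 of them up. For fibroblasts libraries 2 and 3 came in the order opposite to that of *Ttr*. The microglia list ran in another order, with 18.1%, 30.7% and 51.2% of its level in libraries 1, 2 and 3, and all 10 of its genes were highest in library 3. The part of the makeup of library 1 in the *Ttr* and *Enpp2* values was not tested.

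**Figure D3:**
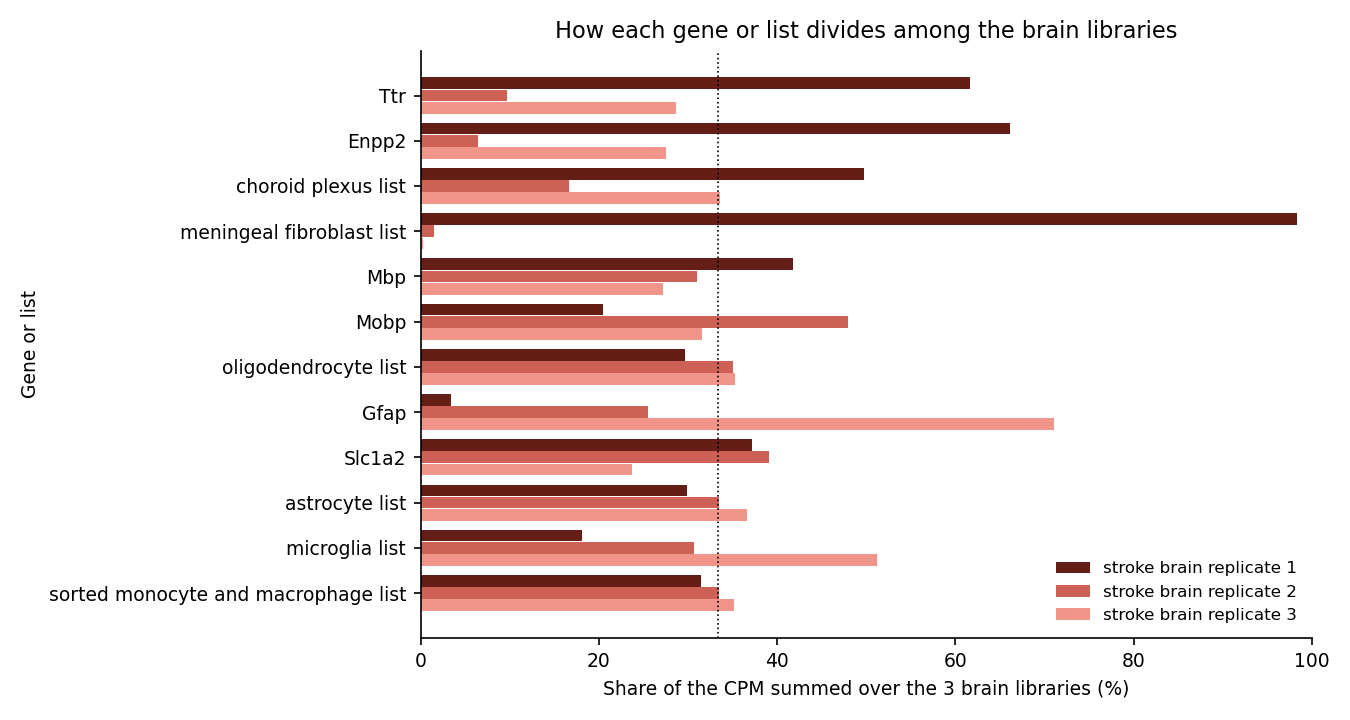
Share (%) of the CPM summed over the 3 brain libraries that each library holds, for single genes and for the summed genes of each list; the dotted line is an equal share. *Ttr*, *Enpp2* and the choroid plexus list have their largest share in library 1 and their smallest in library 2, and the microglia list has its largest share, 51.2%, in library 3.

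*Mbp* (chromosome 18, 82475146 to 82585637) encodes myelin basic protein, and from a promoter far upstream the same gene also gives the golli transcripts, which immune cells are known to make. It had 3578, 3207 and 2684 counts in brain libraries 1, 2 and 3. In stroke blood it had 5135, 6917 and 3430 counts, and in sham blood 5202, 6003 and 3037 counts. This was 152 ± 34.5 CPM in the brain, 251 ± 67.9 CPM in stroke blood and 233 ± 61.3 CPM in sham blood (SD, n = 3 each). The brain mean was 0.606 times that of stroke blood and 0.653 times that of sham blood, and the groups overlapped, since brain library 1 (191 CPM) lay above replicate 3 of stroke blood (185 CPM) and of sham blood (164 CPM). After TMM scaling the log2 difference of brain from stroke blood was -0.88 ± 0.23 and that from sham blood -0.74 ± 0.23 (SE). With library size alone as the scale the median of all genes moved up by 0.15 and 0.12 in these comparisons, and the *Mbp* values became -0.72 and -0.61.

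Stroke blood against sham blood played no part in the choice of the genes and allows a test for *Mbp*. The log2 fold change of stroke over sham was 0.14 ± 0.25 (SE; edgeR, adjusted p = 0.824), smaller than the spread between replicates. Without replicate 3 of sham blood it was -0.06 (adjusted p = 0.943) and without replicate 2 of stroke blood -0.08 (adjusted p = 0.886) in edgeR, so its sign rests on single libraries. In this comparison edgeR called 0.0079% of all genes, 1 of 12664, in either direction.

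GENCODE M21 holds 16 transcripts of *Mbp*, of which 4 start within 1 kb of the start of the gene and 12 start at least 70 kb downstream. Gene counts add these up, so the golli and the myelin forms could not be separated. The genes most like *Mbp* over the 9 libraries were *Ldlrad3* (0.17 on the log2 measure used for *Ttr*), *Cdc42ep4* (0.18), *5530601H04Rik* (0.19) and *Cul4b* (0.20). Of the oligodendrocyte list *Mag*, *Cnp* and *Trf* had enough brain counts to be compared in this way. None of them was among these genes, but only 4 of 9316 genes were kept, so nothing follows from their absence.

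*Mobp*, which encodes a protein of compact myelin, behaved unlike *Mbp*. It lies on chromosome 9 (120149707 to 120181484) and overlaps *Gm38642* on the same strand. It had 22, 62 and 39 counts in brain libraries 1, 2 and 3, with exact 95% Poisson intervals of 13.8 to 33.3, 47.5 to 79.5 and 27.7 to 53.3, and 0 counts in all 6 blood libraries. The brain mean was 1.91 ± 0.79 CPM (SD, n = 3), at least 12.8-fold above stroke blood and at least 12.7-fold above sham blood. Library 2 was the highest for *Mobp* and the lowest for *Ttr*, so that there were 1.25, 18.6 and 4.13 *Mobp* counts per 100 *Ttr* counts in libraries 1, 2 and 3. These intervals cover the counting of reads only. The reads carried no molecular identifiers, so reads copied from the same molecule could not be told apart and the intervals can be too narrow.

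The promoter of *Mobp* is printed because it was the one myelin gene of the set that was present in each brain library and in no blood library. The sequence is from RefSeq (GRCm38.p6), chr9:120149492-120149791, plus strand, from 250 bases before to 50 after the start that RefSeq gives, which lies inside the span of the gene given above. Capitals mark CTTTGT, whose reverse complement ACAAAG is the core of the motif bound by SOX factors, among them SOX10 of oligodendrocytes.
Mobp promoter: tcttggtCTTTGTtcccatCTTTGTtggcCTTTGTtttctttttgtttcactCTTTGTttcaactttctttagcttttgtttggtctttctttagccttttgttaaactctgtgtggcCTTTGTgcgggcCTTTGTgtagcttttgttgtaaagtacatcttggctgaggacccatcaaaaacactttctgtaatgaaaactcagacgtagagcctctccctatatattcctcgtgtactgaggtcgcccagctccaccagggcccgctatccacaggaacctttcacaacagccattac
The search covered both strands and found 6 copies, all as CTTTGT on the printed strand and none overlapping another. Of 32851 promoters of 300 bases, 18.7% held at least 1 copy on either strand, and 1 promoter, that of *Mobp* itself, held as many as 6. The promoters of *Gfap*, *Slc1a2* and *Cldn5* held 0 copies. A match of letters is no proof of binding, and *Sox10* itself had 8 counts in brain library 1 and 0 in the other 8 libraries.

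The other genes of oligodendrocytes fell into genes that were absent, genes shared with blood cells and a small number that rose in the brain. Of 20 genes 8 were at 0 in all 9 libraries, namely *Mog*, *Mal*, *Ugt8a*, *Ermn*, *Opalin*, *Olig1*, *Olig2* and *Gpr37*, which include the defining transcription factors and the myelin surface gene *Mog*. edgeR tested 6 of the 20 against stroke blood, of which 2 rose and 0 fell, with a median log2 fold change of -0.01 (13.1% of all genes tested were called up and 7.86% down). Against sham blood 2 of 6 rose and 0 fell, with a median of 0.32 (9.75% and 3.67% of all genes). DESeq2 called the same number up and 0 down in each comparison, and in edgeR no other gene of the list passed an unadjusted p of 0.05.

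*Mag*, myelin associated glycoprotein, had 76, 182 and 217 counts in the brain and 3 to 48 in blood, a log2 fold change of 2.49 ± 0.71 against stroke blood (SE; edgeR, adjusted p = 0.0270), with the adjusted p at 0.0897 without brain library 3. *Apod*, a lipid carrier of oligodendrocytes and other glia, had 12, 203 and 49 counts in the brain and 0 to 10 in blood, a log2 fold change of 3.40 ± 0.99 (SE; edgeR, adjusted p = 0.0285), but 1.96 with an adjusted p of 0.156 without brain library 2. Both calls were lost when single libraries were left out. *Cnp*, which encodes a myelin phosphodiesterase, had 2220 to 3098 counts in the brain and 1873 to 3320 in blood (log2 fold change 0.04 ± 0.16), and its exons overlap *Dnajc7*. *Trf*, transferrin, had 577 to 719 and 316 to 906 counts (log2 fold change -0.06 ± 0.21). Thus *Cnp* and *Trf*, like *Mbp*, had counts of the same order in blood and brain.

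Among the astrocyte genes *Slc1a2*, *Gfap* and *Aqp4* were at 24 counts or fewer. *Slc1a2*, the main glutamate transporter of astrocytes (chromosome 2, 102658659 to 102790784, overlapping *Gm13872* on the opposite strand), had 15, 19 and 11 counts in brain libraries 1, 2 and 3. It had 1, 0 and 2 counts in stroke blood and 3, 2 and 0 in sham blood. The brain mean was 0.716 ± 0.181 CPM (SD, n = 3), a ratio of 13.8 to stroke blood (counting interval 4.65 to 72.9) and of 8.96 to sham blood (3.43 to 27.8). All 3 brain libraries lay above all 6 blood libraries, and *Slc1a2* was the most even of the low genes, with its highest brain library at 1.65 times the lowest.

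*Gfap* (chromosome 11, 102887336 to 102900912), the filament gene that reactive astrocytes raise around an infarct, had 1, 9 and 24 counts in brain libraries 1, 2 and 3. It was at 0 in stroke blood and had 5 counts in replicate 2 of sham blood and 0 in the others. The brain mean was 0.520 ± 0.539 CPM (SD, n = 3), at least 3.50-fold above stroke blood and 6.65 times sham blood (counting interval 2.53 to 21.3), and without brain library 3 the mean was 0.226 CPM. Brain library 1, with its single count, was under the floor of 3 counts and lay below that sham library, so the groups overlapped. *Gfap* ran opposite to *Ttr* in library 1, where it had 3.41% of its summed brain level. *Aqp4*, the water channel of astrocyte endfeet (chromosome 18, 15389394 to 15403684), had 3 counts in brain library 2 and 0 in the other 8 libraries, which is at the floor.

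The wider astrocyte list held 18 genes, of which 10 were above 3 counts in every brain library and 3 (*Gjb6*, *Ntsr2* and *Slc6a11*) were at 0 in all 9 libraries. Of 8 tested against stroke blood 4 rose and 1 fell, and the median log2 fold change was 1.37 (13.1% of all genes tested were called up and 7.86% down). Against sham blood 3 of 8 rose and 0 fell (median 1.61), and DESeq2 called 6 up and 1 down there, whereas 6 of the 8 passed an unadjusted p of 0.05 in edgeR. *Slc1a3*, the other glutamate transporter of astrocytes, had 45, 146 and 378 counts in the brain and 0 in blood, at least 59.1-fold above stroke blood (edgeR, adjusted p = 0.00181) and at least 58.6-fold above sham blood (adjusted p = 0.00883). *Gja1*, the gap junction gene connexin 43, had 75, 97 and 40 counts against 4 or fewer in blood, a log2 fold change of 6.30 ± 0.94 (SE; edgeR, adjusted p = 0.00129). These genes rose in the brain, but not in step with each other over the brain libraries. *Slc1a3* was highest in library 3, as the microglia list was, and *Gja1* in library 2, and the part of the microglia in the values of either gene was not tested. *Aldoc*, a glycolytic enzyme, had 219 to 282 counts in the brain and 67 to 151 in blood, and its log2 fold change of 1.003 ± 0.301 (SE; edgeR, adjusted p = 0.0321) was at the threshold and came out as 0.98 with RLE normalization. *Clu*, the chaperone clusterin, fell by 3.10 ± 0.38 on the log2 scale (SE; edgeR, adjusted p = 0.000459), with 74 to 213 counts in the brain and 932 to 1546 in stroke blood. The summed astrocyte list was accordingly lower in the brain, at 37.4 to 45.8 CPM against 56.2 to 82.5 CPM in stroke blood, and sham blood spanned 10.7 to 139 CPM with *Clu* at 59, 1817 and 2296 counts in its replicates.

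*Cldn5*, the tight junction gene of brain endothelium (chromosome 16, 18776847 to 18778260), had 0 counts in all 9 libraries, which allows a level of up to 0.162 CPM in any of them. The list of 18 other endothelial genes was not empty, since 5 were above 3 counts in every brain library and 13 in at least 1, but the endothelial receptor gene *Tek* was at 0 throughout. Of 4 tested against stroke blood 2 rose and 0 fell (median log2 fold change 1.40), and the same counts held against sham blood (median 0.89), with 3 and 2 of the 4 at an unadjusted p under 0.05. Of all genes tested 13.1% were called up against stroke blood and 9.75% against sham blood. The number of endothelial genes up against stroke blood was 4 without brain library 3 and 6 with no filter on low counts. *Kdr*, a receptor of vascular endothelial growth factor, had 77, 130 and 186 counts in the brain and 1 to 23 in blood, a log2 fold change of 5.73 ± 0.61 over stroke blood (SE; edgeR, adjusted p = 0.000226). *Abcb1a*, the efflux pump of the barrier, had 247, 307 and 195 counts in the brain and 45 to 129 in blood, a log2 fold change of 2.01 ± 0.31 (SE; edgeR, adjusted p = 0.00155), and it overlaps *Gm42686*. *Flt1* and *Itm2a* did not pass (edgeR, adjusted p = 0.0885 and 0.397). *Flt1* had 493 to 592 counts in the brain, 558 to 835 in stroke blood and 218 to 663 in sham blood. Its log2 fold change against stroke blood was -0.62. *Itm2a* had 66 to 144 counts in the brain and 10 to 101 in stroke blood, a log2 fold change of 0.80. DESeq2 called 5 endothelial genes up and 1 down against stroke blood, and 2 up and 1 down against sham blood.

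Of 12 mural cell genes 4 were tested against stroke blood, of which 1 rose and 1 fell. *Cspg4*, the NG2 proteoglycan of pericytes and oligodendrocyte precursors, had 144, 67 and 85 counts in the brain and 0 in blood, at least 32.7-fold above stroke blood (edgeR, adjusted p = 0.000699). *Acta2*, smooth muscle actin, fell by 1.39 ± 0.41 on the log2 scale (SE; edgeR, adjusted p = 0.0301), with 90 to 250 counts in the brain and 347 to 577 in blood, and lost its call without replicate 3 of stroke blood (adjusted p = 0.115). *Pdgfrb* and *Kcnj8* did not pass (edgeR, adjusted p = 0.112 and 0.459). The 6 ependymal genes, which line the ventricles beside the choroid plexus, were at 20 counts or fewer in every brain library and none had enough counts for the test against stroke blood. *Rsph1* had 5, 20 and 2 brain counts and *Tekt1* 12, 0 and 0, *Dynlrb2* had 6, 0 and 3, and *Foxj1* had 0, 0 and 1. In blood *Rsph1* was present as well, at 5 to 23 counts per library.

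*Snap25* (chromosome 2, 136713453 to 136782428) had 8 counts in brain library 3, with a 95% Poisson interval of 3.45 to 15.8, and 0 counts in the other 8 libraries. Of 20 other neuronal genes 4 were at 0 in all 9 libraries, among them *Syt1* of synaptic vesicles, *Gad2* and *Grin1*. Of 6 tested against stroke blood 1 rose and 2 fell (median log2 fold change -0.86), beside 13.1% of all genes called up and 7.86% down. Of 5 tested against sham blood 1 rose and 2 fell (median -1.05), beside 9.75% and 3.67%. *Eno2*, neuronal enolase, had 15, 38 and 31 brain counts and 0 in blood, at least 8.78-fold above stroke blood (edgeR, adjusted p = 0.00272). The list as a whole was lower in the brain, at 307 to 371 CPM against 543 to 741 CPM in stroke blood and 554 to 769 CPM in sham blood. The fallen genes of brain versus stroke blood were *Nrgn* (9 to 13 brain counts, 469 to 530 in stroke blood) and *Gad1* (0 in the brain, 11 to 35 in stroke blood), both named here after their values were seen. *Syp* and *Tubb3* did not pass (edgeR, adjusted p = 0.388 and 0.205).

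*Snap23*, *Vim* and *Slc1a5* were abundant where their relatives among the 9 genes were low or absent. *Snap23*, the form of *Snap25* that cells other than neurons use in secretion, had a level of 42.1 ± 2.23 CPM per kilobase of exon in the brain, 36.1 ± 5.72 in stroke blood and 41.0 ± 5.55 in sham blood, against 0.0182 ± 0.0315 for *Snap25* in the brain (SD, n = 3). *Snap23* did not pass in either comparison (log2 fold change 0.07 ± 0.16, adjusted p = 0.770 against stroke blood in edgeR). *Vim*, vimentin, the filament of leukocytes that belongs to the family of *Gfap*, had 253 ± 75.6 CPM per kilobase in the brain and 362 ± 33.0 in stroke blood, against 0.123 ± 0.128 for *Gfap* in the brain. *Vim* was lower in the brain by a log2 difference of -0.67 ± 0.21 (SE; edgeR, adjusted p = 0.0365), under the threshold of 1, and by -0.38 from sham blood (adjusted p = 0.278). *Slc1a5*, a transporter of glutamine and other neutral amino acids, had 21.6 ± 8.96 CPM per kilobase in the brain and 15.7 ± 5.03 in stroke blood (edgeR, adjusted p = 0.484), against 0.0545 ± 0.0138 for *Slc1a2* in the brain.

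Among the 10 relatives edgeR called 5 up against stroke blood (*Enpp1*, *Enpp4*, *Slc1a3*, *Aqp9* and *Cldn1*), beside 13.1% of all genes tested, and 4 up against sham blood (the same without *Aqp9*), beside 9.75%. *Enpp1*, an ectoenzyme that makes pyrophosphate, had 508, 408 and 523 brain counts and 15 to 51 in blood, a log2 fold change of 3.59 ± 0.28 over stroke blood (SE; edgeR, adjusted p = 4.3e-05). Unlike *Enpp2* it was nearly even over the brain libraries and was present in blood. *Enpp4*, another ectoenzyme of the family, rose by 2.11 ± 0.51 on the log2 scale (SE; edgeR, adjusted p = 0.0128). *Cldn1* had 96, 42 and 79 counts in the brain where *Cldn5* had none, with 1 count over the stroke blood libraries, a ratio of 220 (counting interval 37.2 to 8312; edgeR, adjusted p = 0.000633), and *Cldn12* did not pass (adjusted p = 0.687). *Cldn1* is a claudin of epithelia. *Aqp9*, the aquaporin of leukocytes, had 332 to 441 counts in the brain, 12 to 147 in stroke blood and 83 to 278 in sham blood, a log2 fold change of 2.48 ± 0.68 over stroke blood (SE; edgeR, adjusted p = 0.0225) and 0.81 over sham blood (adjusted p = 0.219). *Aqp1*, which choroid plexus and red blood cells express, had 4, 0 and 4 counts in the brain and 12 to 20 in stroke blood, a log2 fold change of -2.77 ± 0.88 (SE; edgeR, adjusted p = 0.0401) that was lost under most alternatives, DESeq2 included (adjusted p = 0.0655).

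**Figure D4:**
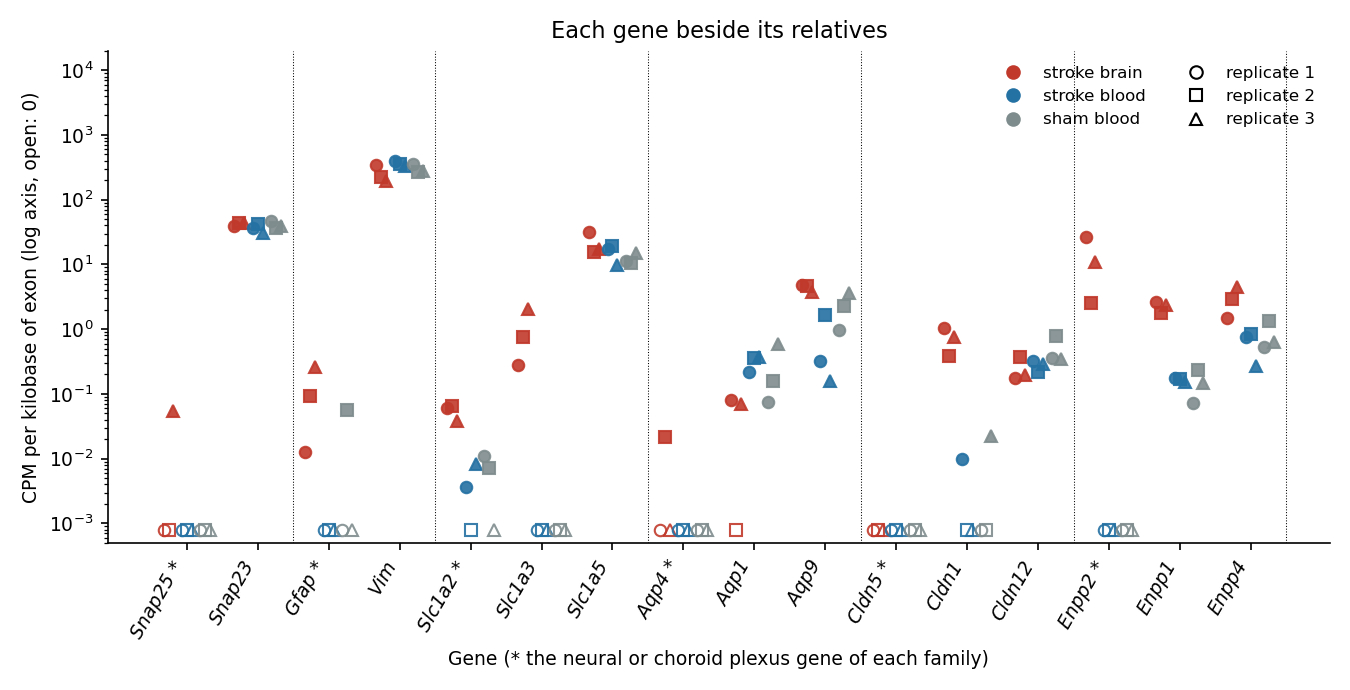
CPM per kilobase of exon (log axis) of 6 genes of the set, marked with a star, and of their 10 relatives in the 9 libraries, with color for the group, shape for the replicate number and open symbols for 0. *Snap23* and *Vim* are high in all 9 libraries while *Snap25* and *Gfap* are near or at 0, and *Cldn1* is seen in the brain while *Cldn5* is not.

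Per kilobase of exon *Ttr* was at a brain level of 42.8 ± 33.7 CPM per kilobase, *Mbp* at 17.97 ± 4.07 and *Enpp2* at 13.3 ± 12.1 (SD, n = 3 each), and the libraries of these genes overlapped. *Mobp* followed at 0.278 ± 0.115, *Gfap* at 0.123 ± 0.128 and *Slc1a2* at 0.0545 ± 0.0138 CPM per kilobase. Neighbors overlapped here too, while each library of *Enpp2* lay above each library of *Mobp*. *Snap25* at 0.0182 ± 0.0315, *Aqp4* at 0.00709 ± 0.0123 and *Cldn5* at 0 closed the order, and libraries of *Snap25* and *Aqp4* overlapped those of *Gfap* as well. In blood the order was different, since *Mbp* alone was abundant, at 29.7 ± 8.02 CPM per kilobase in stroke blood and 27.5 ± 7.24 in sham blood, with *Slc1a2* and *Gfap* at a few counts and the other 6 at 0.

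Over the 8 lists of brain cells outside the myeloid lineage, 117 genes in all without the 9, edgeR tested 34 against stroke blood. Of these 13 rose and 5 fell, with a median log2 fold change of 0.70, while 21% of all genes tested were called in either direction. Against sham blood 12 of 33 rose and 3 fell (median 0.72), beside 13.4% of all genes called. The remaining genes were mostly low, and 21 of the 117 were at 0 in all 9 libraries. Between stroke blood and sham blood edgeR called 0 of 26 tested genes, 0 of them with an unadjusted p under 0.05, and DESeq2 called 0 of 59, 1 of them with an unadjusted p under 0.05. Of the microglia list 9 of 10 tested genes rose against stroke blood, beside 13.1% of all genes tested. The list had a median log2 fold change of 8.12 (6.28 with bounds), the highest median of the 11 lists in that comparison. Against sham blood its median of 7.05 was below the 7.26 of the choroid plexus list, but with bounds it was above, at 6.52 and 3.72.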

How the data were processed

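RNA of sorted monocytes/macrophages was sequenced in 9 libraries, 3 per group, and grouped by the tissue and procedure in their labels. The authors aligned reads by HISAT2 (GRCm38) and assigned them to genes by HTSeq, and the deposited values are raw counts without normalization. Versions, annotation release and strand setting of that step are not given in the sources used here. Symbols, exon lengths and overlaps were read from GENCODE M21, where 53620 of the 53801 identifiers were found. No library repeated another, as replicates of a group gave a chi-square of 23.9 to 136 per degree of freedom. The labels do not say whether blood replicates came from separate days, so p-values measure the spread between these libraries.

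The quasi-likelihood test of edgeR 4.0.16 (R 4.3.3) was run on the libraries of the pair of groups compared, after TMM and the default low count filter, with Benjamini-Hochberg adjustment over every gene tested. A DEG had an adjusted p under 0.05 and a log2 fold change beyond 1 in size. Where every library of a group was at 0, the fold is a lower bound against 3 counts per library. It is taken from the mean of the other group, so a single library can lie under the bound. Ratios of low counts carry exact binomial 95% intervals. These and the Poisson intervals cover the counting of reads only and can be too narrow for molecules. The standard error is the log2 fold change over the root of the F statistic. The code was tested on simulated data. Other steps ran in Python 3.11.15 with scipy 1.17.1, pandas 2.3.3 and numpy 2.4.6, and matplotlib 3.10.9 drew the figures.

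The 9 genes and the 11 lists were chosen with earlier results of these data known. The rule for names was all 9 genes, all relatives, the 4 genes of each list with the highest mean brain count, and the 4 genes most like each of *Enpp2*, *Mbp* and *Ttr* by the root mean square difference of centered log2(CPM + 0.5) values. Alternatives were DESeq2 1.42.0, no filter, RLE, library size only, a single fit of all 9 libraries, the replicate number as a block, each library left out in turn, and a pseudocount of 1. A few genes of the lists are left out of the text, also where the rule names them.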

Additional observations from a re-analysis of the deposited data

How the results depend on the processing

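At these depths a gene under 3 counts could not be told from an absent one. The replicate numbers did not pair the libraries (correlations of same-numbered deviations from -0.073 to 0.0744 over the comparisons), and with the number as a block brain versus stroke blood gave 1681 DEGs up and 953 down, beside 1734 and 1037 without it. With 1 brain library left out the mean brain CPM ranged from 29.2 to 68.8 for *Ttr*, 39.1 to 107.9 for *Enpp2*, 133 to 166 for *Mbp*, 1.49 to 2.27 for *Mobp* and 0.226 to 0.754 for *Gfap*, and *Aqp4* and *Snap25* each fell to 0 without the 1 library that held them. DEGs down in brain versus sham blood ranged from 277 to 669 with 1 library left out, lowest without replicate 3 of sham blood. In stroke versus sham blood, DEGs up and down were 61 and 66 with DESeq2, 59 and 101 with no filter, 0 and 1 with the block, and 0 to 1 and 0 to 15 with 1 library left out, the 15 without replicate 1 of sham blood. Genes of the 8 lists up against stroke blood (13) became 22 with DESeq2 and 28 with no filter, and those down (5) ranged from 3 to 5 with 1 library left out. Against sham blood, those up (12) became 22 with no filter, and those down (3) became 5 with DESeq2, 6 in a single fit of all libraries and 6 with no filter, and ranged from 1 to 6 with 1 library left out. Small log2 fold changes against stroke blood turned sign with 1 library left out: *Slc1a5* ranged from -0.067 (without brain library 1) to 0.495, *Snap23* from -0.052 (without replicate 3 of stroke blood) to 0.129, *Cnp* from -0.061 (without replicate 3 of stroke blood) to 0.120, with -0.033 without replicate 1 of stroke blood and -0.004 without brain library 3, and *Trf* from -0.224 to 0.115 (without replicate 3 of stroke blood), with 0.10 for library size only. *Mbp* in stroke versus sham blood ranged from -0.084 (without replicate 2 of stroke blood) to 0.299, with -0.060 without replicate 3 of sham blood. Choroid plexus genes called up against stroke blood numbered 3 without brain library 1, as with it, 5 without brain library 3 and 6 without any 1 of the stroke blood libraries. In edgeR the call of *Aqp9* was lost without brain library 2 (adjusted p = 0.0522) and that of *Enpp4* without brain library 3 (adjusted p = 0.0552). Fewer samples or other sets of genes tested enter these settings by construction, and the cause of each change was otherwise not tested.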
